A study of Mus musculus with 9 samples.

Results

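Transcripts of B, T and natural killer (NK) lymphocytes were followed in mouse pancreas through 38 genes chosen by name as markers of these cells and of the signals that gather them. All 38 were found, among 17132 genes in the table. They comprised 13 genes of B and antibody-secreting cells, 16 of T cells, 5 of NK and cytotoxic cells and 4 of lymphocyte homing and lymphoid tissue. The pancreas came from 9 wild-type C57BL/6 mice of 22 to 25 g, 3 in each of 3 groups, whose age and sex are not given in the sources used here. Control mice received 7 injections of saline into the abdominal cavity at intervals of 1 h, and saline again in place of the decoction. Model mice received caerulein, a peptide that acts like cholecystokinin on acinar cells and in excess causes pancreatitis, on the same schedule, with lipopolysaccharide (LPS, a bacterial cell wall component) added to the last injection, and saline in place of the decoction. QYD mice received the injections of the Model group and were dosed with Qingyi Decoction, a Chinese herbal medicine, at 0 h and again at 8 h. The pancreas was collected at 24 h from the start of the injections. Libraries are named here by group and mouse number, from Control 43 to QYD 68.

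B cells recognise antigen through a membrane immunoglobulin that signals through the paired chains Cd79a and Cd79b, and some of them become plasma cells that secrete antibody. T cells signal through the CD3 chains, assisted by the co-receptors Cd4 and Cd8. NK cells and cytotoxic T cells kill targets with perforin and granzymes. In lymphoid tissue, stromal cells secrete Cxcl13, which draws B cells carrying Cxcr5, and Ccr7 guides T cells and dendritic cells to lymph nodes. The healthy pancreas is mostly acinar tissue with few lymphocytes, although lymph nodes and fat lie against the gland.

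Libraries held 19112923 to 20212744 estimated counts, and their composition differed between the groups. The 50 most abundant genes, mostly digestive enzymes, took 90.8% to 91.4% of counts in Control and 64.8% to 72.0% in the other 6 libraries. Levels are given as CPM after TMM scaling, that is, counts relative to the library total, adjusted so that libraries are level for the typical gene. One CPM on this scale stood for 7.15 to 7.87 counts in Control and for 26.9 to 34.9 counts in the injured pancreas. A count of 0 allows up to 3 counts, or 0.381 to 0.419 CPM in Control and 0.0859 to 0.112 CPM elsewhere. Scaling by library totals instead of TMM moved the log2 fold change of the median gene by 2.15 in Model versus Control, by -0.118 in QYD versus Model and by 2.03 in QYD versus Control. In bulk tissue, fewer cells of a type and less RNA per cell cannot be told apart.

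The genes lay near the lower end of detection. All 38 together had 590, 200 and 295 counts in Control 43, 44 and 45. They had 1186, 3969 and 1355 in Model 56, 57 and 59, and 4367, 3880 and 963 in QYD 65, 66 and 68. Cxcl13 alone gave 52 to 2193 of these counts. Of the 38, 27 passed the filter on low counts and were tested. The 11 that did not pass were Cr2, Fcer2a, Cd3d, Cd3e, Cd4, Cd8a, Cd8b1, Cd5, Zap70, Lat and Lef1, whose counts lay between 0 and 26. Per length, as the mean of the deposited FPKM over the 9 libraries, Cxcl13 was the most abundant at 45.6. Jchain at 3.66, Cd37 at 3.65, Gzma at 3.51, Ltb at 2.73 and Cd79a at 2.18 followed. The CD3 chain Cd3e had a mean FPKM of 0.168, and Cr2, a complement receptor of B cells, had the lowest at 0.0378.

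Defining markers of B and T cells were present, but thinly for T cells. For NK cells, the receptor gene Klrb1c had 2 to 17 counts, and the granzymes and perforin are shared with cytotoxic T cells. Cd79a had at least 2 counts in every library and Cd3e at least 1. The exact Poisson 95% intervals, which cover counting error only, show how far single libraries could be told apart. For Cd79a they were 78.7 to 118 for the 97 counts of Model 57 and 0.242 to 7.22 for the 2 counts of Model 59. For Cd3e they were 3.45 to 15.8 for 8 counts and 0.0253 to 5.57 for 1 count in the same mice. The intervals of the 2 libraries did not overlap for Cd79a and did overlap for Cd3e.

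Promoters of 6 of the genes are shown as examples: a B cell receptor chain, the antibody-joining chain, a T cell receptor chain, 2 granzymes and a chemokine. Each of the 6 was highest in Model 57 within Model, like 36 of all 38 genes, and lowest in QYD 68 within QYD, like 37 of 38. A link between promoters and that order was not tested. Each stretch is the 150 bases before the start in RefSeq (GRCm38.p6), written 5′ to 3′ in the direction of the gene, with capitals for motifs found on either strand. The stretches are chr7:24897347-24897496 on the plus strand for Cd79a, chr5:88527898-88528047 on the minus strand for Jchain, chr9:44980432-44980581 on the minus strand for Cd3g, chr13:113100982-113101131 on the minus strand for Gzma, chr14:56262335-56262484 on the minus strand for Gzmb and chr5:95956789-95956938 on the plus strand for Cxcl13.
Cd79a: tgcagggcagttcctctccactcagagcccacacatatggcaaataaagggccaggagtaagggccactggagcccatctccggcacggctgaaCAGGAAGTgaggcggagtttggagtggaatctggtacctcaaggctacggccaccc
Jchain: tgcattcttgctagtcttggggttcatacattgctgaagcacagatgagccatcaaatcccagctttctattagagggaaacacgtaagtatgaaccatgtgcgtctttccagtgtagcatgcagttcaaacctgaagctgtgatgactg
Cd3g: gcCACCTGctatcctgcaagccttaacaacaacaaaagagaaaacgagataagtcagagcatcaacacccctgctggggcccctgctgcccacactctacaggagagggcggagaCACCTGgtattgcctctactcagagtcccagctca
Gzma: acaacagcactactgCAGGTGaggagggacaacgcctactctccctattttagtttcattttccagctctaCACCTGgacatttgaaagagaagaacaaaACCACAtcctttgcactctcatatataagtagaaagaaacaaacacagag
Gzmb: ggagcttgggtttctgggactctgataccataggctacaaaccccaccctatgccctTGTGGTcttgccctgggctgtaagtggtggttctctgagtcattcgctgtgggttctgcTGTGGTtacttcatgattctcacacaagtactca
Cxcl13: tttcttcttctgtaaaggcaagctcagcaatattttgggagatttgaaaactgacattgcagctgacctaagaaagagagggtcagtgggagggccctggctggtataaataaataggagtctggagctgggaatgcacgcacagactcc
The capitals mark the ETS motif CAGGAAGT in Cd79a, the E-box CAGGTG or its reverse complement in Cd3g and Gzma, and the RUNX motif TGTGGT or its reverse complement in Gzma and Gzmb. None of these matches overlapped another. The stretches of Jchain and Cxcl13 held none of the motifs searched.

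Across the promoter table, 28 of the 38 genes had at least 1 promoter, 37 in all, and both strands of the 250 bases before each start were searched. The octamer ATGCAAAT, a motif of immunoglobulin promoters, was in 0 of the 37 and in 1.6% of all 32851 promoters. The E-box CAGGTG was in 16 of the 37 against 17.2% of all promoters. The ETS motif CAGGAAGT was in 8 of the 37, in Cd247, Cd3e, Cd79a, Il7r, Lck, Lef1 and Prf1, against 2.69%. The RUNX motif TGTGGT was in 8 of the 37 against 14.0%, in all 5 NK and cytotoxic genes, the T cell kinases Lck and Zap70, and Fcer2a. The EBF palindrome was in that of Cd22 alone, against 0.779%. The last 4 motifs were chosen after the octamer had been searched, a match is only a match of letters, and no binding was measured here.

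B cell receptor genes spread widely between mice of the same group. Cd79a, a signalling chain of the receptor (chromosome 7, 24897497 to 24901858), measured 3.91, 1.40 and 1.65 CPM in Control 43, 44 and 45. It measured 0.143, 2.89 and 0.069 CPM in Model 56, 57 and 59, and 3.16, 6.10 and 0.335 CPM in QYD 65, 66 and 68. Model 57 thus stood 41.9-fold above Model 59, and QYD 66 stood 18.2-fold above QYD 68. The ratio in Model rests on 97 counts against 2. Its partner Cd79b (chromosome 11, 106311341 to 106314562) had the same mice at the top, with 3.77, 0.637 and 0.763 CPM in Control, 0.229, 3.10 and 0.173 in Model and 2.31, 4.32 and 0.261 in QYD. Groups overlapped for both genes in every comparison. Of the other 3 genes of this list, Cd22, an inhibitory co-receptor, and the kinase Blk were tested, and each was highest in Model 57 within Model and lowest in QYD 68 within QYD.

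Of the other 5 B cell surface and lineage genes, 4 were highest in Control 43, Model 57 and QYD 66 and lowest in QYD 68 within their groups. The exception was Fcer2a, which was highest in Model 59 within Model and in QYD 65 within QYD. Ms4a1, which encodes CD20, measured 3.08, 0.127 and 0.763 CPM in Control, 0.0286, 1.55 and 0.0345 in Model and 2.46, 2.81 and 0.0745 in QYD. These values rest on 1 count in Control 44, Model 56 and Model 59 and on 52 counts in Model 57. Cd37, a tetraspanin that other leukocytes also carry, had the smallest spread of the B cell list, with 3.63, 1.78 and 1.78 CPM in Control, 2.69, 4.41 and 2.21 in Model and 4.74, 5.03 and 2.72 in QYD. Even so, the highest library in each group was again Control 43, Model 57 and QYD 66. Pax5, the B lineage transcription factor, had 0 counts in Control 44, 57 in Model 57 and 1 in Model 59.

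Antibody-secreting cell genes were high in the same libraries. Jchain, the chain that joins secreted antibody units (chromosome 5, 88519809 to 88527897), measured 10.9, 3.57 and 2.29 CPM in Control. It measured 0.716, 8.87 and 0.345 CPM in Model and 13.7, 9.92 and 1.16 CPM in QYD. Mzb1, an endoplasmic reticulum protein of antibody-secreting cells, measured 1.12, 0.382 and 0.381 CPM in Control, 0.0572, 1.64 and 0.069 in Model and 2.60, 2.21 and 0.224 in QYD. Pou2af1, a transcriptional co-activator of B cells, measured 1.40, 0.637 and 1.02 CPM in Control, 0.372, 4.47 and 0.104 in Model and 5.76, 5.13 and 0.410 in QYD. All 3 were highest in QYD 65 within QYD, as was Blk, whereas Cd79a, Cd79b, Cd22 and Cr2 were highest in QYD 66.

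T cell receptor genes showed the order of mice at far lower counts. Cd3g, a CD3 chain (chromosome 9, 44969572 to 44980431), had 7, 0 and 2 counts in Control, 2, 12 and 0 in Model and 12, 19 and 1 in QYD. Cd247, the zeta chain of the receptor, had 7, 1 and 5 counts in Control, 4, 20 and 4 in Model and 20, 22 and 3 in QYD. The co-receptor Cd4 was at 0 in Model 56, Model 59 and QYD 68, and had 8, 9, 10 and 14 counts in Control 43, Model 57, QYD 65 and QYD 66. Cd8a and Cd8b1, the chains of the other co-receptor, reached their highest counts in QYD 66, 26 and 24.

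Co-stimulatory and signalling genes of T cells differed in their spread, which was wide for Cd2. Cd2, an adhesion receptor, measured 1.12, 0.255 and 0.127 CPM in Control, 0, 0.953 and 0.138 in Model and 0.848, 1.07 and 0.0745 in QYD. Cd28, the co-stimulatory receptor, measured 0.559, 0 and 0.509 CPM in Control, 0.200, 0.357 and 0.241 in Model and 0.614, 1.01 and 0.410 in QYD. On the TMM scale it was the 1 tested lymphocyte gene whose QYD mice all stood above all Model mice, at 7 to 30 counts. On library totals the groups overlapped, with QYD 68 at 0.557 CPM and Model 57 at 0.626 CPM. Lck, the kinase that phosphorylates the CD3 chains, measured 0.978, 0.127 and 0.381 CPM in Control, 0.601, 0.983 and 0.621 in Model and 0.819, 1.17 and 0.261 in QYD. The transcription factor Tcf7 was steadier still, at 6.57, 6.11 and 3.56 CPM in Control, 2.69, 3.93 and 3.14 in Model and 4.41, 4.46 and 3.50 in QYD. Il7r, the receptor for interleukin 7, measured 0.559, 0.127 and 0.254 CPM in Control, 0.658, 1.07 and 0.517 in Model and 0.731, 1.17 and 0.298 in QYD.

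NK and cytotoxic genes were highest in Model 57 as well, in 5 of 5 within Model. Gzma (chromosome 13, 113093824 to 113100981), a granzyme, measured 1.12, 0.509 and 1.53 CPM in Control, 1.12, 4.62 and 0.759 in Model and 2.16, 3.18 and 1.79 in QYD. On the TMM scale, all 3 QYD values stood above all 3 Control values, while Model 56 and Model 59 fell within the Control range. On library totals, Model 56 and Model 59 were at 2.025 and 1.151 CPM, above the 0.198 to 0.605 CPM of Control. Gzmb (chromosome 14, 56258836 to 56262334) measured 0.699, 0.127 and 1.14 CPM in Control, 1.15, 3.84 and 0.966 in Model and 3.39, 3.32 and 0.633 in QYD. Prf1, which encodes perforin, had 0 or 1 counts in Control, 41 in Model 57 and 4 to 17 in the other injured libraries. Klrb1c, which encodes the NK cell receptor NK1.1, reached 0.890 CPM in Control 45. Gzma, Gzmb and Klrb1c, 3 of the 5, were highest in Control 45 within Control. Klrb1c belongs to a family of similar genes among which reads may be split.

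Homing and lymphoid tissue genes divided into 2 kinds. Cxcl13 (chromosome 5, 95956939 to 95961068) measured 26.8, 6.62 and 14.2 CPM in Control, 18.3, 58.1 and 32.2 in Model and 64.1, 53.7 and 18.4 in QYD. It was highest in Control 43, Model 57 and QYD 65 within their groups. Its receptor Cxcr5 measured 1.68, 0.127 and 0.636 CPM in Control, and in the injured groups had 45 counts in Model 57 and 40 and 56 in QYD 65 and 66, against 4 or 5 in the other 3. Ltb, which encodes lymphotoxin beta, a signal for building lymphoid tissue (chromosome 17, 35194507 to 35196305), did not follow these mice. It measured 1.26, 0.509 and 0.636 CPM in Control, 2.35, 1.94 and 2.17 in Model and 2.95, 2.18 and 2.38 in QYD, so that Model 57 was the lowest of the Model mice. Ccr7 measured 0.699, 0.127 and 0.509 CPM in Control, 1.06, 2.08 and 1.04 in Model and 1.40, 2.95 and 0.894 in QYD. For Ltb and Ccr7, every injured mouse stood above every Control mouse.

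**Figure D1:**
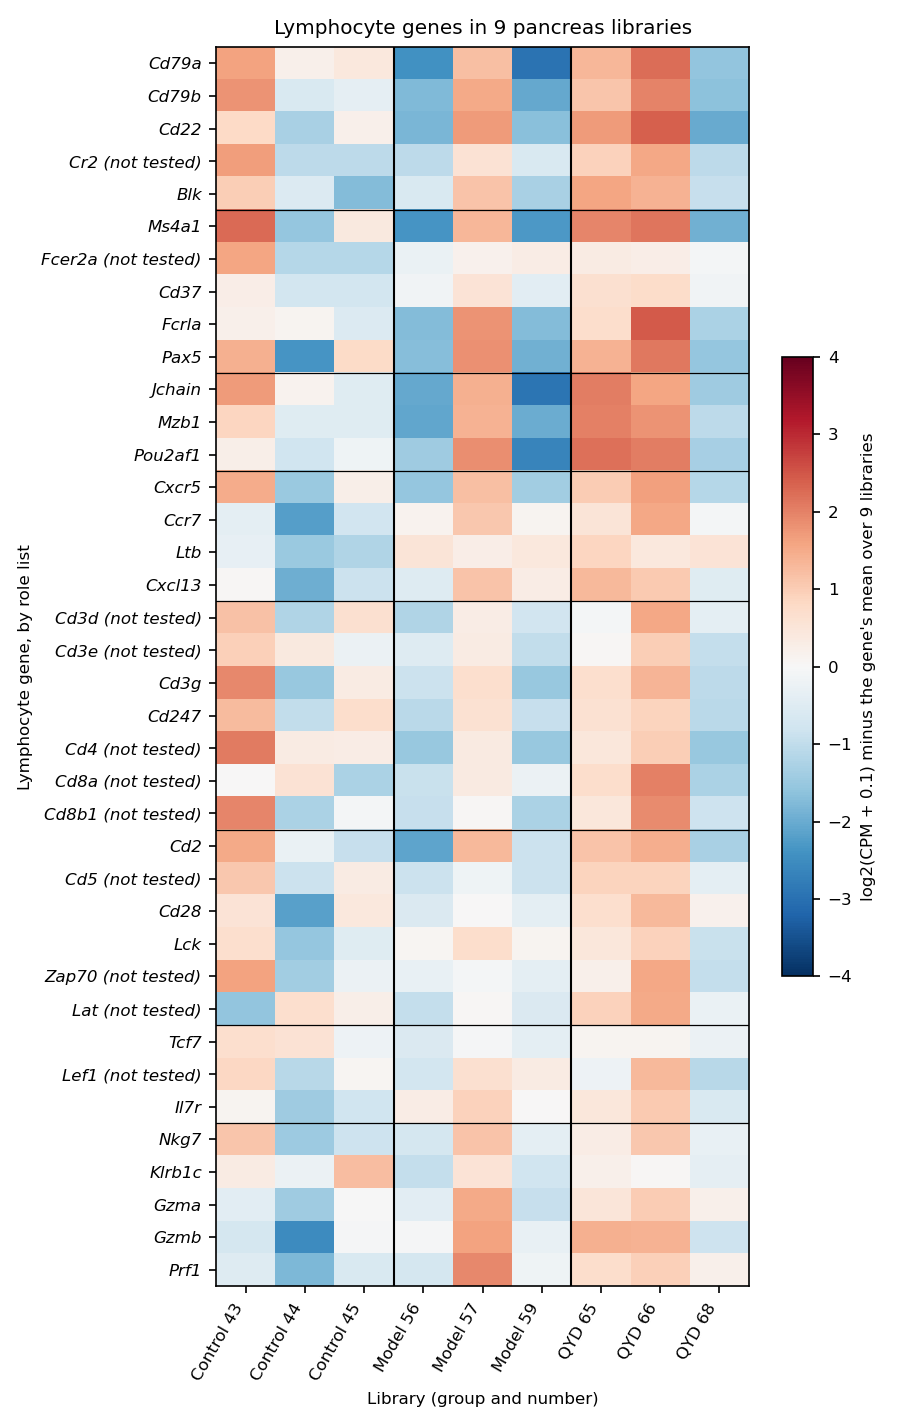
Level of the 38 lymphocyte genes (rows, in their role lists) in each of the 9 libraries (columns), as log2(CPM + 0.1) minus the gene's mean over the 9 libraries; red is above and blue below that mean. Control 43, Model 57, QYD 65 and QYD 66 are mostly red from Cd79a to Cd2, while Ltb and Tcf7 show little colour.

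The order of mice was shared across the lists. Control 43 was the highest of the Control mice in 33 of the 38 genes, against 33.9% of all 12828 tested genes. Model 57 was the highest of the Model mice in 36 of 38, against 32.4%, the exceptions being Fcer2a and Ltb. QYD 68 was the lowest of the QYD mice in 37 of 38, against 37.9%, and QYD 66 was the highest in 29 and QYD 65 in 9. All 3 held together in 31 of the 38 genes and in 6.02% of tested genes. The lowest library was Control 44 in 27 genes within Control, and Model 56 in 22 and Model 59 in 15 within Model. In all such counts, libraries of a group tied at 0 counts were credited to the first listed. Such ties were Cr2 and Fcer2a in Control 44 and 45, and Fcrla, Cd4 and Cd5 in Model 56 and 59. Genes that mark the same cells are not independent of each other, so these counts describe the 9 libraries.

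Summed over the 13 B and antibody-secreting cell genes, the level was 32.4, 9.17 and 10.4 CPM in Control 43, 44 and 45, 4.64, 33.3 and 3.45 CPM in Model 56, 57 and 59, and 40.5, 45.2 and 5.59 CPM in QYD 65, 66 and 68. The highest library exceeded the lowest 3.54-fold in Control, 9.67-fold in Model and 8.09-fold in QYD. The 16 T cell genes summed to 15.9, 7.90 and 7.12 CPM, to 4.67, 9.94 and 5.35 CPM and to 10.5, 15.5 and 5.07 CPM in the same order. The 5 NK and cytotoxic genes summed to 3.63, 1.02 and 3.94 CPM, to 2.78, 11.5 and 2.45 CPM and to 7.07, 8.61 and 3.35 CPM. The highest T cell sum exceeded the lowest 2.24-fold in Control, 2.13-fold in Model and 3.06-fold in QYD, without a test against the B cell sums. Tcf7 gave 28 to 151 of the T cell counts in each library, 48 of 62 in Control 44. Without Tcf7, an alternative chosen after seeing the data, the other 15 genes summed to 9.37, 1.78 and 3.56 CPM in Control, 1.98, 6.01 and 2.21 in Model and 6.05, 11.1 and 1.56 in QYD. The highest of these sums then exceeded the lowest 5.25-fold in Control, 3.04-fold in Model and 7.07-fold in QYD. The ratio of B to T cell counts, which needs no scaling between libraries, was 3.35 in Model 57, 3.87 in QYD 65 and 2.91 in QYD 66. It was 0.994 in Model 56, 0.645 in Model 59 and 1.10 in QYD 68, and 2.04, 1.16 and 1.46 in the Control mice. Without Tcf7 this ratio was 3.46, 5.14 and 2.93 in Control, 2.35, 5.54 and 1.56 in Model and 6.69, 4.09 and 3.57 in QYD.

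**Figure D2:**
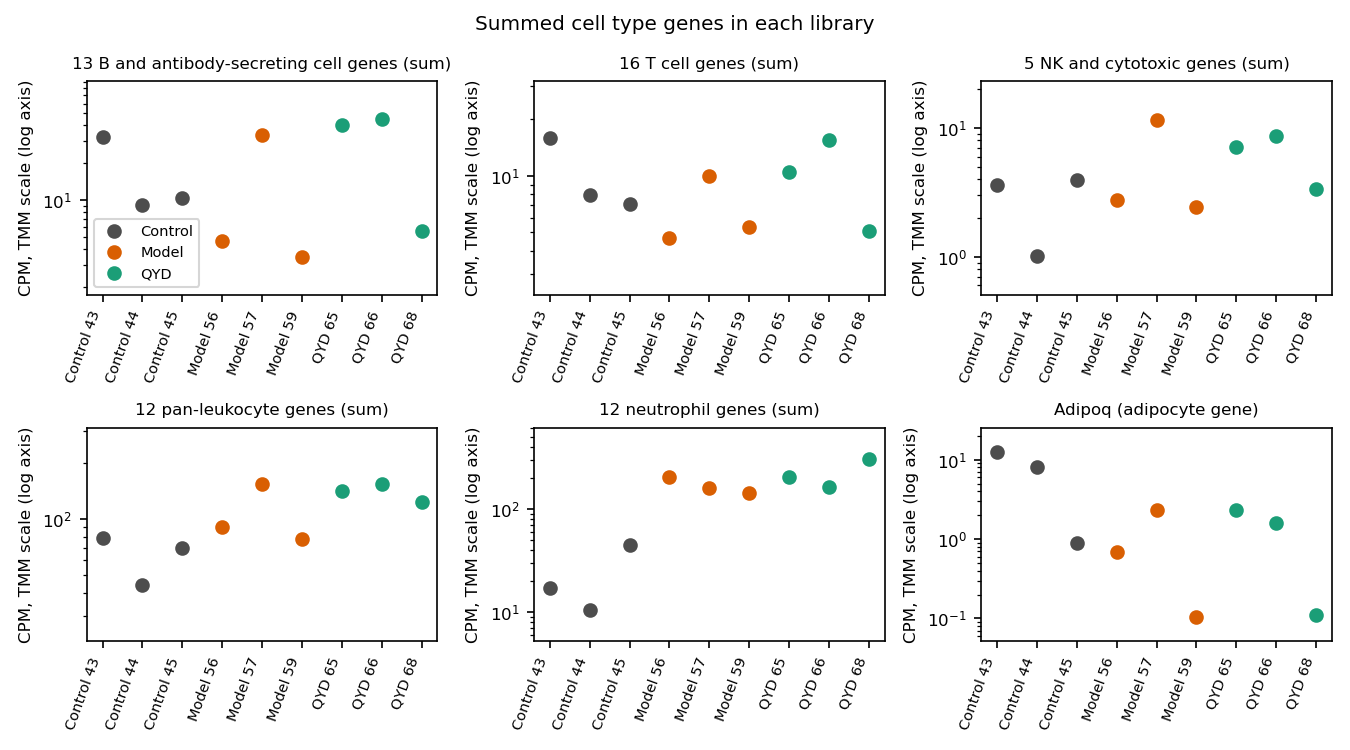
Summed level of 13 B and antibody-secreting cell genes, 16 T cell genes, 5 NK and cytotoxic genes, 12 pan-leukocyte genes and 12 neutrophil genes, and the level of the adipocyte gene Adipoq, in each library (points, CPM on the TMM scale, log axes with a different range in each panel). Within their groups, Model 57, QYD 65 and QYD 66 stand high for B, T and NK genes and for Adipoq. QYD 68 is low for these and highest of all libraries for neutrophil genes. For Adipoq, Control 43 and Control 44 stand above every injured mouse, at 12.6 and 8.15 CPM, while Control 45 is at 0.890 CPM.

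Relative to leukocytes as a whole, B cell counts came to 41.1%, 21.0% and 14.9% of the summed counts of 12 pan-leukocyte genes such as Ptprc in Control. The same ratio was 5.11%, 21.5% and 4.45% in Model and 28.5%, 29.3% and 4.52% in QYD, so all groups overlapped. These are ratios of counts from genes of different length, not shares of cells. For T cell genes the ratio was 10.2% to 20.2% in Control, 5.14% to 6.90% in Model and 4.10% to 10.0% in QYD, with every injured mouse below every Control mouse. That separation from QYD rested on Tcf7: without it the ratio was 11.9%, 4.08% and 5.08% in Control, 2.18%, 3.87% and 2.85% in Model and 4.26%, 7.16% and 1.27% in QYD. Model then still lay below Control, with Model 57 and Control 44 close together, and QYD overlapped Control. For NK and cytotoxic genes it was 2.33% to 5.63%, 3.06% to 7.38% and 2.71% to 5.58% in the same order, and all groups overlapped. Neutrophils also express pan-leukocyte genes, and 12 neutrophil markers summed to 10.6 to 44.8 CPM in Control, 142 to 202 in Model and 162 to 303 in QYD, but their part in the T cell ratio was not tested.

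The spread within groups was large for genes of this level. The gene's own dispersion, edgeR's measure of variance between mice of a group beyond counting error, was divided by the trend for genes of the same abundance. The median of this ratio was 6.82 over the 27 tested lymphocyte genes and 0.70 over all 12828 tested genes. Of the 27, 13 were among the 128 most dispersed genes (the top 1%) and 19 among the 641 of the top 5%. Jchain had the highest ratio of the 27, at 26.6, and ranked 5 among all tested genes. The B and antibody-secreting cell genes had a median ratio of 14.8, with 9 of 11 in the top 1%. The T cell genes had a median of 1.99 with 2 of 7 in the top 1%, and the NK and cytotoxic genes 3.89 with none of 5. Ltb at 0.50 and Tcf7 at 0.94 lay below the trend. A high ratio was not particular to lymphocyte genes. The median was 8.47 for 6 tested adipocyte markers, with 3 in the top 1%, and 4.04 for 12 neutrophil markers, with 1. It was 3.00 for monocyte and macrophage markers, 2.78 for pan-leukocyte genes and 0.80 for acinar markers.

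**Figure D3:**
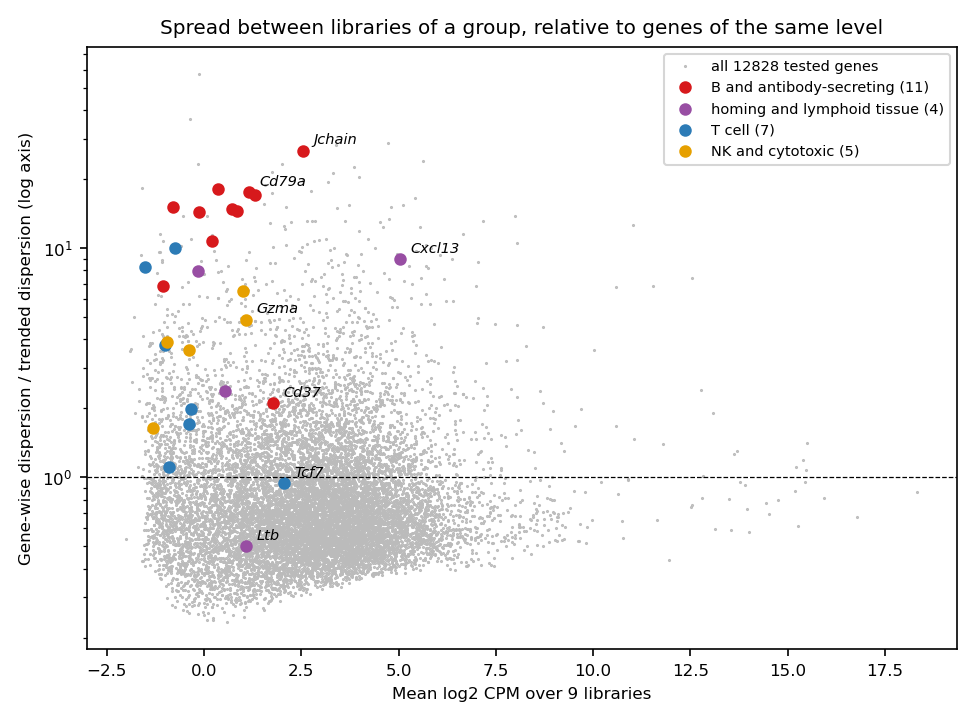
Gene-wise dispersion divided by the trended dispersion (log axis) against the mean log2 CPM over 9 libraries, for all 12828 tested genes (grey) and the 27 tested lymphocyte genes (coloured by cell type); the dashed line marks a gene on the trend. Most B cell genes lie far above the grey cloud, with Jchain at 26.6, while Ltb at 0.50 lies within it.

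Genes of other cell types that moved with these mice within the injured groups included those of fat, of macrophages and of leukocytes as a whole. All 7 adipocyte markers were highest in Model 57 within Model and in QYD 65 within QYD, and 6 of 7 were lowest in QYD 68. Within Control, 5 of 7 were highest in Control 43, but all 7 were lowest in Control 45, whereas 27 of the 38 lymphocyte genes were lowest in Control 44. The adipokine Adipoq had 90, 64 and 7 counts in Control, 24, 78 and 3 in Model and 80, 48 and 3 in QYD. The lipid droplet gene Cidec had 111, 70 and 19 counts, then 17, 97 and 5, then 134, 66 and 7. The 7 markers summed to 39.9 to 95.3 CPM in Control, 31.0 to 58.4 in Model and 54.5 to 73.1 in QYD, a sum dominated by Fabp4. Plin1 was at 0 in QYD 68, as was Adrb3, which had at most 3 counts anywhere. All 12 monocyte and macrophage markers were also highest in Model 57 within Model, and 8 of 12 were lowest in QYD 68. The same held for all 12 pan-leukocyte genes in Model 57, and 9 of these 12 were lowest in QYD 68. The part of neighbouring fat or of other immune cells in the spread was not tested.

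Glycam1, Chst4 and Tlx1 were near 0, but other genes of the lymph node vessel, reticular and spleen list were not. Glycam1, a defining gene of the high endothelial vessels of lymph nodes, had 2 counts in QYD 66 and 0 in the other 8 libraries, and Chst4, a sulfotransferase of those vessels, had 0 to 3. The spleen transcription factor Tlx1 had 0 to 2 counts. Ccl21a, a chemokine of lymph node stroma with a near-identical copy in Ccl21b that makes its counts uncertain, was highest in QYD 66 at 153 counts, against 46 to 77 in the other injured mice, and Madcam1, a vessel adhesion molecule, was highest there at 27 counts. Of the 12 genes of this list, Model 57 and Model 59 were each highest in 5 within Model, and QYD 66 was highest in 7 within QYD. The list summed to 27.4, 15.15 and 8.01 CPM in Control 43, 44 and 45. The sums were 7.985, 9.62 and 8.93 CPM in Model 56, 57 and 59, and 9.15, 14.4 and 6.26 CPM in QYD 65, 66 and 68. The part of lymph node tissue in the spread of the lymphocyte genes was not tested.

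Neutrophil, acinar and red blood cell genes had other orders. All 12 neutrophil markers were highest in QYD 68 within QYD, and 10 of 12 were highest in Model 56 within Model. All 10 acinar markers were highest in Model 59 within Model and 9 of 10 in QYD 68 within QYD. All 6 red blood cell genes were highest in QYD 65 within QYD, while 4 of the 6 were lowest in Model 57. Within Control, all but 1 of them were highest in Control 43, and that 1 had no counts in Control. Their part in the spread of the lymphocyte genes was not tested.

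The comparison of Model with Control addresses the effect of caerulein with LPS. Of the 27 tested genes, 2 passed an adjusted p of 0.05, Ltb higher and Tcf7 lower, whereas 42.6% of all tested genes passed (21.3% higher and 21.3% lower). Ltb rose from 0.801 ± 0.401 to 2.15 ± 0.207 CPM (SD, n = 3), and its log2 fold change was 1.44 ± 0.33 (SE; adjusted p = 0.0049, edgeR quasi-likelihood test). Tcf7 fell from 5.41 ± 1.62 to 3.25 ± 0.628 CPM, by 0.73 ± 0.24 on the log2 scale (adjusted p = 0.033, edgeR). That direction depends on the scale, since on library totals Tcf7 was higher by 1.43 (adjusted p = 0.00025, edgeR). It also lost its call without Control 43, Control 44, Model 56 or Model 59, at adjusted p of 0.127, 0.110, 0.099 and 0.073 (edgeR), with only the Model and Control libraries fitted, at 0.057 (edgeR), and with limma-voom, at 0.159.

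Ccr7 and Ltb were the 2 tested genes whose Model and Control mice did not overlap on the TMM scale, against 52.3% of all tested genes. Ccr7 had a log2 fold change of 1.66 ± 0.68 and did not pass (adjusted p = 0.070, edgeR), and neither did Cxcl13 at 1.19 ± 0.56 (adjusted p = 0.11). The granzymes Gzmb and Gzma, at 1.60 ± 0.91 and 1.05 ± 0.73, and Prf1 at 2.49 ± 1.32 had adjusted p between 0.15 and 0.27. For Cd79a the difference was -1.13 ± 1.20 and for Jchain -0.72 ± 1.13, each with a standard error larger than the difference. Over the lists the median log2 fold change was -0.05 for the 11 B and antibody-secreting cell genes, -0.40 for the 7 T cell genes, 1.05 for the 5 NK and cytotoxic genes and 1.32 for the 4 homing genes, beside 0.04 over all tested genes. On library totals the same medians were 2.11, 1.71, 3.21 and 3.47, beside 2.19 over all tested genes.

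The count of calls depended on Model 57. Without Model 57, 7 of 31 tested genes passed, Ltb higher and 6 lower, beside 4664 of 12994 genes in all (2314 higher and 2350 lower). The 6 were Tcf7, Jchain, Ms4a1, Cd79a, Klrb1c and Cd4, the last 2 named after their values were seen. Model 57 was singled out because most lymphocyte genes were highest in it, so lower fitted values for such genes without it follow from that choice. The log2 fold change of Cd79a was then -4.33 (adjusted p = 0.021, edgeR), that of Ms4a1 -5.13 (adjusted p = 0.045) and that of Jchain -3.33 (adjusted p = 0.030). For Cd79a this order was also that of the raw counts, 5 and 2 in Model 56 and 59 against 11 to 28 in Control at similar depth, whereas the Jchain counts of 25 and 10 overlapped the 18 to 78 of Control.

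**Figure D4:**
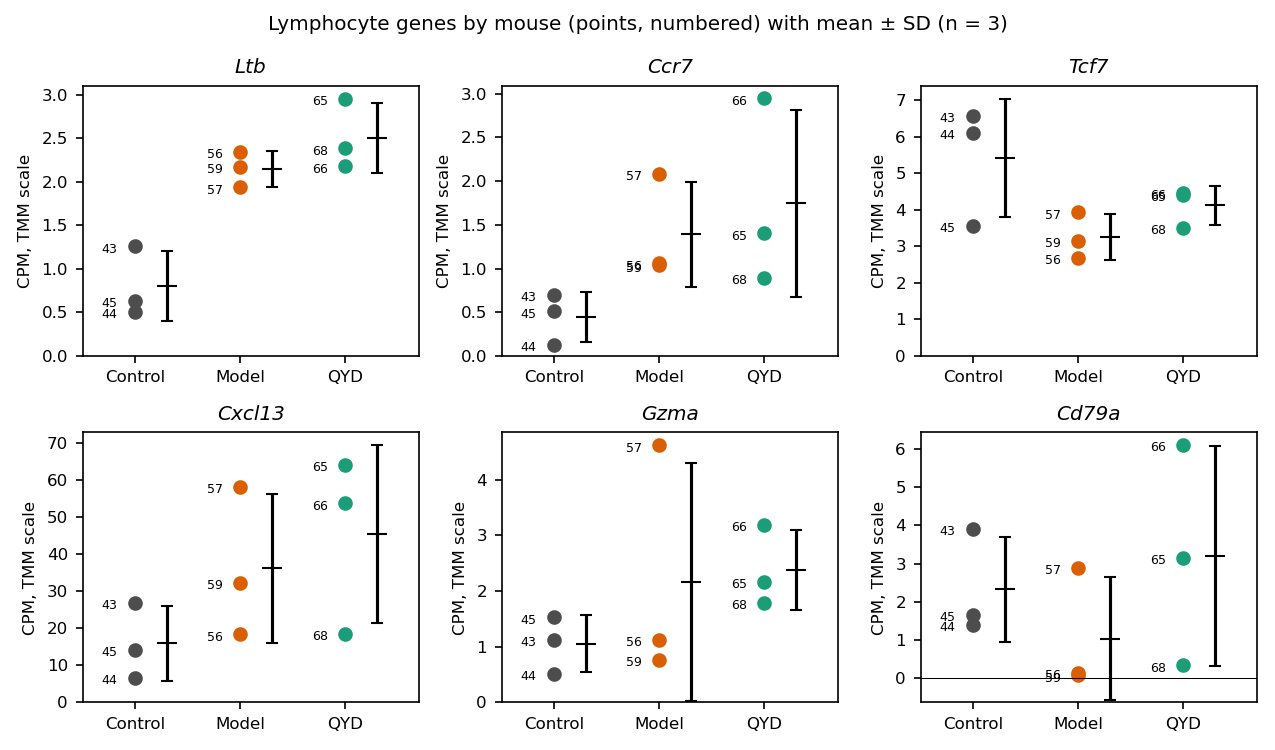
CPM on the TMM scale of Ltb, Ccr7, Tcf7, Cxcl13, Gzma and Cd79a in each mouse (points, with mouse numbers), with the mean ± SD of each group beside them (n = 3). The Ltb points of each injured group lie together above Control, Tcf7 is lower in Model on this scale but higher on library totals, and the Cd79a bar of Model reaches below 0, with Model 57 at 2.89 CPM and the other Model mice at 0.143 and 0.069.

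Treatment with the decoction was compared with untreated pancreatitis. In QYD versus Model, 0 of the 27 lymphocyte genes passed, as did 0% of all tested genes, by the edgeR quasi-likelihood test. At an unadjusted p under 0.05 there was 1 lymphocyte gene, Cd28, and 750 genes in all. DESeq2 called 0 lymphocyte genes at an adjusted p under 0.05. Cd28 averaged 0.266 ± 0.081 CPM in Model and 0.676 ± 0.302 in QYD (SD, n = 3), with a log2 fold change of 1.33 ± 0.54 (adjusted p = 0.83). On the TMM scale, groups did not overlap for this gene alone of the 27, against 16.7% of all tested genes. On library totals its groups overlapped.

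The fitted values for B cell genes in QYD versus Model were positive with wide errors. Ms4a1 had a log2 fold change of 1.71 ± 1.17, Cd79a of 1.61 ± 1.02, Mzb1 of 1.50 ± 0.98 and Jchain of 1.32 ± 0.99, with adjusted p between 0.83 and 0.86 (edgeR). All 11 tested B and antibody-secreting cell genes were above 0, with a median of 1.19 beside 0.006 over all tested genes, and the median was 0.76 for T cell, 0.23 for NK and cytotoxic and 0.33 for homing genes. On library totals these medians were 1.11, 0.66, 0.11 and 0.24, beside -0.11 over all tested genes. The high values came from Model 57 within Model and from QYD 65 and QYD 66 within QYD. Without Model 57 the fitted value of Cd79a was 4.81 and that of Jchain 3.93, and 21 of 31 tested lymphocyte genes had an unadjusted p under 0.05, as did 843 of 12994 genes in all, while 0 passed after adjustment (edgeR). Because Model 57 was picked from the values of these same genes, larger differences and smaller spread without it follow from that choice. These counts are therefore no separate evidence for a difference.

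Decoction-treated pancreatitis was also set against saline pancreas. In QYD versus Control, which shares its Control mice with the first comparison and its QYD mice with the second, 2 of the 27 genes passed, both higher, whereas 40.7% of all tested genes passed (20.5% higher and 20.3% lower). Ltb reached 2.51 ± 0.402 CPM, a log2 fold change of 1.66 ± 0.33 (adjusted p = 0.0023, edgeR). Ccr7 went from 0.445 ± 0.291 to 1.75 ± 1.07 CPM, a log2 fold change of 1.99 ± 0.67 (adjusted p = 0.034). The Ccr7 call was lost without Control 44, Control 45 or QYD 66, at adjusted p of 0.130, 0.075 and 0.104 (edgeR), and with limma-voom, at adjusted p = 0.127. Ltb kept its call without any 1 of the 9 libraries.

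On the TMM scale, QYD and Control mice did not overlap for Ccr7, Ltb, Gzma and Prf1 of the 27 genes, against 52.5% of all tested genes. Cxcl13 had a log2 fold change of 1.52 ± 0.57 (adjusted p = 0.051, edgeR) and Gzmb one of 1.90 ± 0.89 (adjusted p = 0.11). Without Model 57, which enters this comparison through the shared estimate of the spread, 5 of 31 lymphocyte genes passed, beside 5040 of 12994 genes in all. Cxcl13 then had an adjusted p of 0.034 and Gzma of 0.038 (edgeR). Model 57 was picked from the values of these same genes, so a smaller spread without it follows from that choice. The B and antibody-secreting cell genes had a median of 0.81, the T cell genes 0.47, the NK and cytotoxic genes 1.18 and the homing genes 1.59, beside 0.06 over all tested genes. On library totals these were 2.87, 2.53, 3.20 and 3.67, beside 2.09 over all tested genes.

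**Figure D5:**
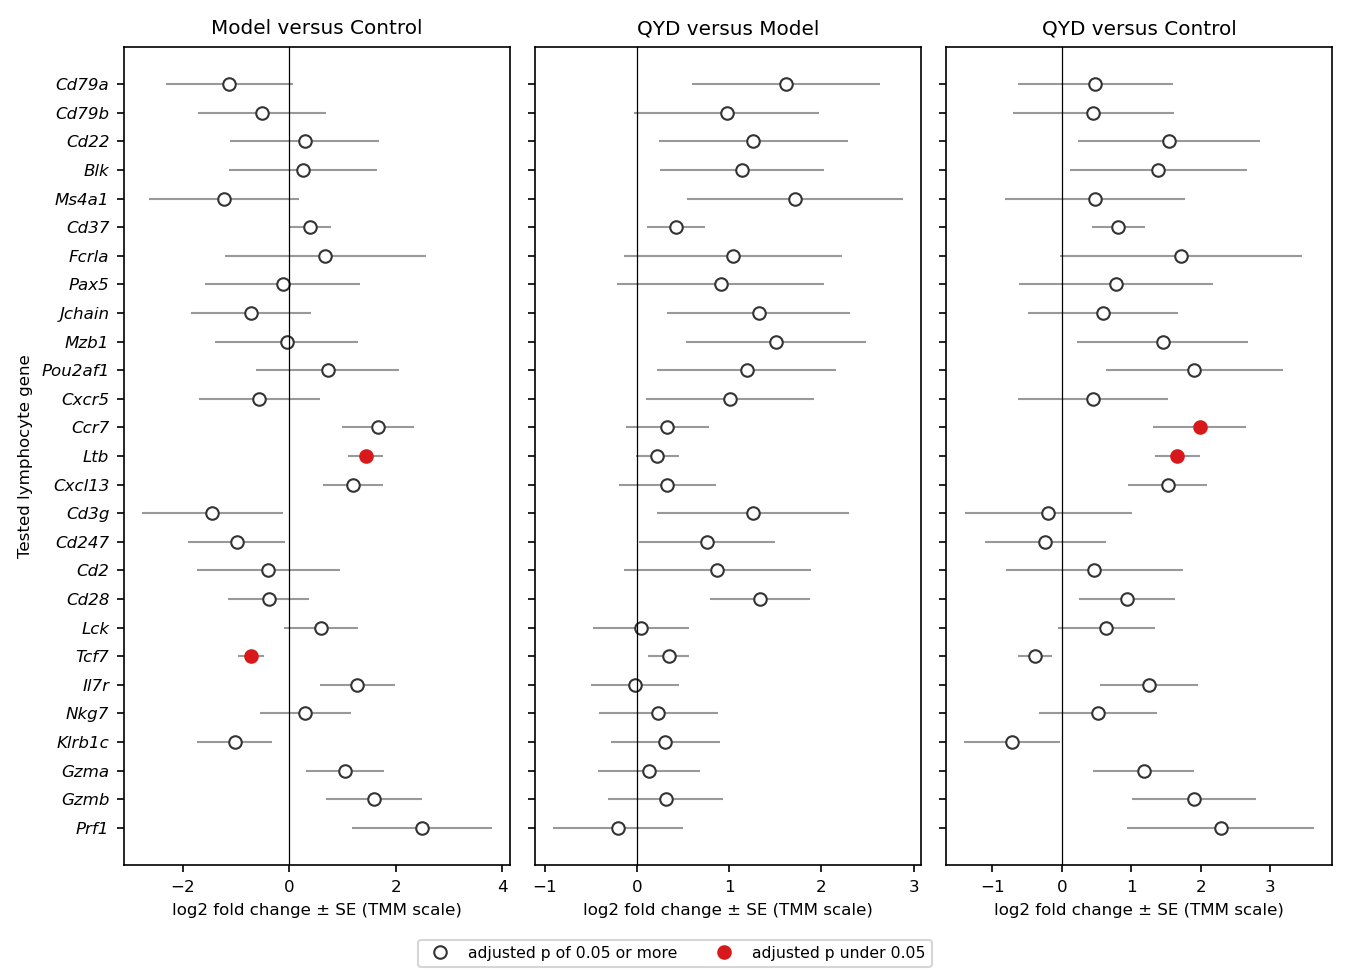
Fitted log2 fold change ± SE (TMM scale) of the 27 tested lymphocyte genes in the 3 comparisons; filled points passed an adjusted p of 0.05. Filled points are Ltb and Tcf7 in Model versus Control and Ltb and Ccr7 in QYD versus Control; Tcf7 is higher, not lower, in Model on library totals, and the error bars of all 11 B and antibody-secreting cell genes include 0 in Model versus Control.

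Other genes of the same cells were counted from lists chosen for their function. Beside them, 42.6% of all tested genes passed in Model versus Control (21.3% higher and 21.3% lower), 40.7% in QYD versus Control (20.5% higher and 20.3% lower) and 0% in QYD versus Model. Of 20 tested further B cell genes, 2 rose in both injured groups against Control and none fell: Plcg2, a phospholipase of B cell receptor signalling, at 1.59 ± 0.25 in Model (adjusted p = 0.00058, edgeR) and the adaptor Dok3 at 1.20 ± 0.32 (adjusted p = 0.012). Macrophages and neutrophils also express both. None passed in QYD versus Model.

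Among 9 tested further antibody-secreting cell genes, 2 rose and 4 fell in Model versus Control, and 3 rose and 4 fell in QYD versus Control. The shares of all tested genes that passed were 42.6% and 40.7%. Derl3 and Fkbp11, which serve protein folding and disposal in secretory cells, fell in Model by 4.13 ± 0.29 and 3.28 ± 0.23 on the log2 scale (adjusted p = 3.9e-06 and 4.1e-06, edgeR). Sdc1, a proteoglycan of plasma cells and epithelium, rose by 2.56 ± 0.27 (adjusted p = 4.9e-05). Acinar cells express secretory pathway genes as well, and the cell source of these 3 changes was not tested. Derl3 was 4.01, 4.08 and 6.86 CPM in Model 56, 57 and 59, which was not the order of mice seen for Jchain. Irf4, another gene of this list, was highest in Control 43, Model 57 and QYD 65 within their groups, as Jchain was. It measured 0.258, 2.26 and 0.138 CPM in Model 56, 57 and 59.

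Of 15 tested further T cell genes, 2 rose and none fell in Model versus Control, and 3 rose and none fell in QYD versus Control, against 42.6% and 40.7% of all tested genes. The chemokine Ccl5 rose by 2.20 ± 0.59 in Model and 1.69 ± 0.59 in QYD on the log2 scale (adjusted p = 0.012 and 0.040, edgeR), with Model 57 at 49.3 CPM against 16.7 and 18.3 in the other Model mice. Gimap4, a lymphocyte GTPase, passed in QYD alone, at 1.20 ± 0.43 (adjusted p = 0.044), and the difference between the injured groups did not pass (adjusted p = 0.92). Of the 20 further NK and cytotoxic genes, 2 had enough counts to be tested and neither passed.

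Signals that attract or hold lymphocytes gave 1 gene of 11 higher in Model versus Control and 2 in QYD versus Control, and none lower, against 42.6% and 40.7% of all tested genes. Vcam1, an adhesion molecule of activated vessels, rose by 1.35 ± 0.36 in Model and 1.34 ± 0.36 in QYD (adjusted p = 0.011 and 0.012, edgeR). Cxcl9, a chemokine for activated T cells, rose by 2.63 ± 0.95 in QYD (adjusted p = 0.045) and stood at 2.09 ± 0.95 in Model (adjusted p = 0.10). It measured 2.10, 0.637 and 8.01 CPM in Control 43, 44 and 45, 4.44, 33.0 and 8.55 CPM in Model 56, 57 and 59 and 33.8, 26.9 and 6.15 CPM in QYD 65, 66 and 68. It was thus highest in Model 57 within Model and lowest in QYD 68 within QYD, but in Control its highest value was in Control 45, not Control 43. Ccl21a was 1.86, 1.52 and 1.79 CPM in Model and did not share that order. None of the 11 passed in QYD versus Model.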

How the data were processed

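Messenger RNA of pancreas from 9 mice, 3 per group, was sequenced after oligo(dT) selection, per the labels' protocols. Tools named in the submitters' processing notes are HISAT2 2.0.4, RSEM 1.2.12 and Bowtie2 2.2.5, with build GRCm38.p6. No source used here gives strandedness, so reads from overlapping antisense genes cannot be told apart. The deposited read counts, per the file headers, were taken as RSEM's estimated counts, since 93.5% of values were whole numbers. FPKM was deposited in the same table, per the file headers, and was used to compare genes and as an alternative unit. TPM was deposited per the file headers and not used, nor were the authors' means.

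Estimated counts were rounded and tested with edgeR 4.0.16 (R 4.3.3): default expression filter (12828 genes kept, 4304 removed), TMM scaling, 1 quasi-likelihood fit of all 9 libraries by group with 6 residual degrees of freedom, two-sided, adjusted by Benjamini-Hochberg over all tested genes, threshold 0.05. Libraries held 19112923 to 20212744 counts. No replicate pair agreed within sampling noise. The labels name separate mice. The steps were tested on simulated data with dispersions on the trend and changes only in genes of at least 1 CPM. That setting does not cover the more dispersed or scarcer lymphocyte genes.

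The genes and the other lists were chosen with earlier results of these data known. Values in every library were given for the 2 most abundant genes of each of 8 role lists, the 4 with the smallest p in each comparison and any that passed. Up to 3 genes with the smallest p and at least 1 CPM were named from each other lymphocyte list, and any of the lymph node and spleen list. Cd22, Pax5, Prf1, Klrb1c, the adipocyte genes and the untested genes named were added after their values were seen. Receptor protein motifs, planned for display, were not analysed here, and some genes of the other lists are not reported here. Alternatives were RLE scaling, library totals, TMM without the 50 most abundant genes, no filter, at least 1 CPM in 3 libraries, DESeq2 1.42.0, limma 3.58.1 (on log2 of FPKM + 1 or + 0.1 with FPKM of at least 0.1 in 3 libraries, and voom with sample quality weights), robust edgeR, only the compared groups, a threshold of 0.1, and each library left out.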

Additional observations from a re-analysis of the deposited data

How the results depend on the processing

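Counts of calls among the lymphocyte genes depended on scaling and on single libraries. In Model versus Control, the 2 calls became 13 on library totals, 1 with limma-voom, 11 with limma on log2(FPKM + 1) and 11 on log2(FPKM + 0.1), and 1 to 7 with a library left out. In QYD versus Control, the 2 became 23 on library totals, 4 with only the compared groups, 16 on each FPKM scale, and 1 to 5 with a library left out. Equal counts did not always hold the same genes: limma-voom called Ltb and Cxcl13 in QYD versus Control, and the fit of only the compared groups called Ltb and Ccr7 in Model versus Control. For all genes, Model versus Control gave 12185 on library totals and 12348 and 12574 on the FPKM scales, and QYD versus Control gave 12155, 12285 and 12533. QYD versus Model gave 1 gene, no lymphocyte gene, with limma-voom and on each FPKM scale. Scaling by library totals or FPKM sets no typical gene level, which by construction moves comparisons with Control upward. Other counts and the spread within groups stayed within 1.5 times the main value under their alternatives.

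Signs of single genes turned as follows, as log2 fold changes, and the cause was not tested unless given above. In Model versus Control, on library totals, Cd79a was 1.05, Cd79b 1.67, Ms4a1 0.95, Jchain 1.48, Mzb1 2.11, Cd3g 0.67, Cd247 1.14, Cd2 1.74, Cd28 1.71 and Tcf7 1.43. On log2(FPKM + 1) the same genes were 0.17, 0.51, 0.15, 0.45, 0.49, 0.098, 0.17, 0.33, 0.10 and 0.81. On log2(FPKM + 0.1), Cd79b was 0.78, Ms4a1 0.054, Jchain 0.42, Mzb1 0.64, Cd3g 0.25, Cd247 0.59, Cd2 0.61, Cd28 0.67 and Tcf7 1.34. With limma-voom Pou2af1 was -0.59, and without the filter Mzb1 was 0.011. With a library left out, Cd79b ran from -3.02 to 0.75, Ms4a1 from -5.13 to 0.29, Jchain from -3.33 to 0.19, Mzb1 from -3.18 to 0.64, Cd3g from -3.46 to 0.15, Cd2 from -2.83 to 0.92, Cd28 from -0.98 to 0.068, Pou2af1 from -2.00 to 1.25 and Gzma from -0.15 to 1.44.

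In QYD versus Model, Lck was -0.054 and Gzma -0.0094 on library totals, Lck -0.041 and -0.20 on the FPKM scales with 1 and 0.1 added, and Il7r 0.13 with limma-voom. With a library left out, Lck ran from -0.41 to 0.42, Gzma from -0.26 to 1.33, Il7r from -0.52 to 0.33, Gzmb from -0.0089 to 1.22, Cxcl13 from -0.0030 to 0.85 and Ccr7 from -0.27 to 0.74.

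In QYD versus Control, Cd3g, Cd247 and Tcf7 were 1.83, 1.81 and 1.66 on library totals, 0.43, 0.33 and 0.98 on log2(FPKM + 1), and 1.30, 1.03 and 1.57 on log2(FPKM + 0.1), and Cd3g was 0.27 with limma-voom. With a library left out, Cd3g ran from -0.94 to 1.42, Cd247 from -0.72 to 0.34, Ms4a1 from -0.067 to 2.01, Cd79a from -0.36 to 1.07, Cd79b from -0.36 to 1.72 and Cd2 from -0.023 to 1.80. No paired analysis was possible because the groups share no replicate numbers. Depth limits the T cell receptor genes most, where values of 0 to 26 counts per library leave most differences undetectable.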
